A study of Mus musculus with 6 samples.

Results

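The cyclic AMP (cAMP) pathway that holds mouse oocytes in meiotic prophase was examined in fully-grown oocytes with and without normal Marf1. The set was defined by name, as probe sets that the platform annotation assigns to 1 gene among 10 genes of receptors, G protein, adenylyl cyclases, phosphodiesterase and protein kinase A (PKA) subunits. Of the 10, 8 had such a probe set, 1 each, out of 19938 genes on the array: Gpr3, Gpr12, Adcy3, Adcy9, Pde3a, Prkar1a, Prkar2a and Prkacb. Gnas and Prkaca lay only on probe sets that name a second gene as well (Gnasas1 and Samd1), so no value is given for either.

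Both groups were oocytes of the germinal-vesicle stage from 23-day-old females of mixed C57BL/6J and C3HeB/FeJ strain background, primed at 21 days of age with 5 IU of equine chorionic gonadotropin for 46 hours. The groups were wild type (Marf1+/+), with 3 samples, and Marf1 ENU/ENU mutants, which carry the chemically induced allele on both copies in every cell, with 3 samples. Oocytes were stripped of cumulus cells before lysis. The labels do not say how many oocytes or females went into a sample, or that samples came from separate animals. A p-value here therefore measures the scatter among the samples only, and that scatter may be technical.

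In the ovarian follicle, the constitutively active receptors Gpr3 and Gpr12 in the oocyte membrane act through the stimulatory G protein Gs (its alpha subunit is encoded by Gnas) on adenylyl cyclase, which makes cAMP. The cAMP binds regulatory subunits of PKA and frees the catalytic subunits, which keep the M-phase kinase Cdk1 inactive through Wee2 and Cdc25b. Phosphodiesterase 3A, encoded by Pde3a, breaks cAMP down, and cyclic GMP arriving from cumulus cells through gap junctions inhibits it until luteinizing hormone acts. Fully-grown oocytes transcribe little, so their mRNA levels are largely those of stored transcripts.

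None of the 8 genes passed the threshold between genotypes (limma, Benjamini-Hochberg adjusted p under 0.05 over all probe sets), with 0 higher and 0 lower. Over all genes 10.4% passed (6.4% higher and 4.04% lower in the mutant), and 16.2% among the genes brighter than a dim-signal level of 4.51 on the log2 scale, the 95th percentile of olfactory and vomeronasal receptor genes. A count of 0 among 8 genes lies near that background and sets the pathway apart in neither direction. At an unadjusted p under 0.05 in limma, 2 of the 8 were lower and 0 higher (Gpr12 and Adcy9), where 13.5% of all genes were lower and 11% higher. The receptor Gpr12 came nearest to the threshold, and passed it as lower in 3 of 14 alternative fits. Gpr3, Gpr12, Adcy9 and Pde3a were lower in all 3 mutant samples than in any wild-type sample, a separation seen downward in 17.7% and upward in 12.9% of all genes. The 4 other genes overlapped between genotypes. The median log2 fold change of the 8 genes was -0.11, and that of all genes -0.04.

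The labels were checked on Marf1 itself (probe set 10437852). Its log2 value was 9.21, 9.16 and 9.31 in wild type and 5.98, 6.40 and 6.16 in the mutant. The groups were far apart, at a log2 fold change of -3.05 (SE 0.15, limma adjusted p = 1.0e-04). Among the arrays, mutant replicate 3 stood apart, correlating at 0.970 and 0.973 with the other mutants, where the other within-group pairs reached 0.984 to 0.985. All 12 oocyte markers lay above the dim level on every array and 0 passed the threshold. Of 15 measured cumulus and granulosa markers, 4 lay above the dim level on every array, namely Foxl2, Has2, Inhbb and Nr5a2. Below it on every array lay 6, namely Cyp11a1, Fshr, Npr2, Ptx3, Slc38a3 and Tnfaip6. In the cumulus and granulosa list 2 rose (Kitl and Nr5a2) and 1 fell (Ptgs2). Kitl had a wild-type mean of 3.72 and Ptgs2 a mutant mean of 4.14, both below the dim level. The summed signal of the list was 9.40 to 9.59 (log2) in wild type and 10.4 to 10.7 in the mutant, with Nr5a2 the brightest row. Of 9 measured theca and stroma markers, 3 lay above the dim level and 5 below it on every array. In that list 2 rose and 0 fell. The 2 were Ogn, below the dim level on every array, and Pdgfra, with a wild-type mean of 4.22. The summed signal was 7.48 to 7.67 in wild type against 7.53 to 7.80 in the mutant. Of 10 measured blood, immune and endothelial markers, 5 lay above the dim level and 5 below it on every array. In that list 0 rose and 1 fell (Pecam1), and the summed signal was 8.58 to 8.60 against 8.11 to 8.39. The part of these markers in the results was not tested.

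Promoter stretches are shown for the genes the results turn on, since transcription factors that bind cAMP response elements (CRE) are a textbook output of PKA. The sequences are the 250 bases before a RefSeq transcription start (GRCm38.p6), read 5′ to 3′ on the strand of the gene, with capitals marking the CRE core TGACG on either strand (CGTCA on the other). Gpr3 and Adcy9 have 1 annotated start in the table and Gpr12 has 2, of which the farther upstream is shown. Gpr12 is drawn from chr5:146585240-146585489, Gpr3 from chr4:133212537-133212786 and Adcy9 from chr16:4420499-4420748, each on the minus strand.
Gpr12: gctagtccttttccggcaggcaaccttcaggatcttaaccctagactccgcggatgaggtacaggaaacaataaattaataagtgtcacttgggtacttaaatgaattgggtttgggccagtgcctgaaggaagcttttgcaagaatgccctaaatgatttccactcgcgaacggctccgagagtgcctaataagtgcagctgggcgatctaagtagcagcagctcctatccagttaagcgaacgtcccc
Gpr3: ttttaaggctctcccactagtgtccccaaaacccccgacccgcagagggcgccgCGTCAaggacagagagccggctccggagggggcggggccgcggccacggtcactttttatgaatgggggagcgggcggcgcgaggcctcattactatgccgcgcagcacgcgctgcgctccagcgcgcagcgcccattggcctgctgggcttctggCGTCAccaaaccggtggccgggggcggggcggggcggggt
Adcy9: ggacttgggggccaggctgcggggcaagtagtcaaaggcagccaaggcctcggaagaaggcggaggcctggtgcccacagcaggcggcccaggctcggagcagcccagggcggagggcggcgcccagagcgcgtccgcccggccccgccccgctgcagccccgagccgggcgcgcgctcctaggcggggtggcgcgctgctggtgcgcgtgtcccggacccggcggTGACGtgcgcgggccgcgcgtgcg
The Gpr12 stretch is of mixed composition (48.8% G and C) and holds no TGACG, and the stretch before its other start holds none either. The Gpr3 stretch is GC-rich (70.8%) and holds 2, whose first bases lie 196 and 40 bases before the start. The Adcy9 stretch (78.8% G and C) holds 1, at 24 bases. The median stretch in the genome had 52.4%, with quartiles of 45.2% and 61.2%.

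The 8-base CRE, TGACGTCA, was found before 1 start of the set, in Prkar1a, the type I regulatory subunit of PKA. It begins 49 bases before 1 of 6 annotated starts, and 30 bases around it are shown (chr11:109650889-109650918, plus strand, CRE in capitals). It was picked because CRE-binding factors are among the genes that rose, as given further on. A link between those factors and this site was not tested.
Prkar1a: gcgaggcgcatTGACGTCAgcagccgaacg
Over all 32851 starts in the table, 1.55% held TGACGTCA and 17.8% held TGACG, which is part of it. Of 22 starts of the set, in 9 matched genes, 10 (45.5%) held TGACG. Some starts of Gnas and of Prkar1a lie so close together that some stretches share a site, and the stretches of the set are mostly richer in G and C than the median. Neither was matched for, so the share is a description only. Pde3a is named only. A match describes the letters and shows no binding.

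The receptors are the top of the pathway. Gpr12 (probe set 10535732) had log2 values of 5.70, 5.49 and 5.67 in wild type and 5.17, 4.83 and 4.27 in the mutant. The wild-type samples lay within 0.21 of each other, the mutant samples spread over 0.90, and the groups were separated by 0.32. The lowest value, that of mutant replicate 3, was below the dim level, so this receptor was bright on 5 of 6 arrays. The mutant mean was 4.76 ± 0.45 (SD, n = 3) against 5.62 ± 0.11 (n = 3), a log2 fold change of -0.86 (SE 0.23, limma adjusted p = 0.0681). That is 55.0% of the wild-type level, with a 95% confidence interval of 37.9% to 79.7%. The adjusted p fell under the threshold with 1 row per gene (0.018), among rows above the median level (0.0301) and without mutant replicate 1 (0.041). Without mutant replicate 3 the log2 fold change was -0.62 (adjusted p = 0.0722). Over all 14 alternatives it lay between -1.07 and -0.62, with adjusted p of 0.018 to 0.199.

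Gpr3 (probe set 10517005), the receptor whose loss lets mouse oocytes resume meiosis early, lay closer to its wild-type level. Its log2 values were 7.64, 7.78 and 7.62 in wild type and 7.46, 7.57 and 7.32 in the mutant. The groups did not overlap, but only 0.05 lay between them, less than the range within either group (0.16 and 0.25). The log2 fold change was -0.23 (SE 0.14, limma adjusted p = 0.443), or 85.3% of wild type with a 95% interval of 68.3% to 106%. After cyclic loess normalization it was -0.07, and without mutant replicate 3, the lowest sample, it was -0.17. The interval does not reach a 2-fold decrease.

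**Figure D1:**
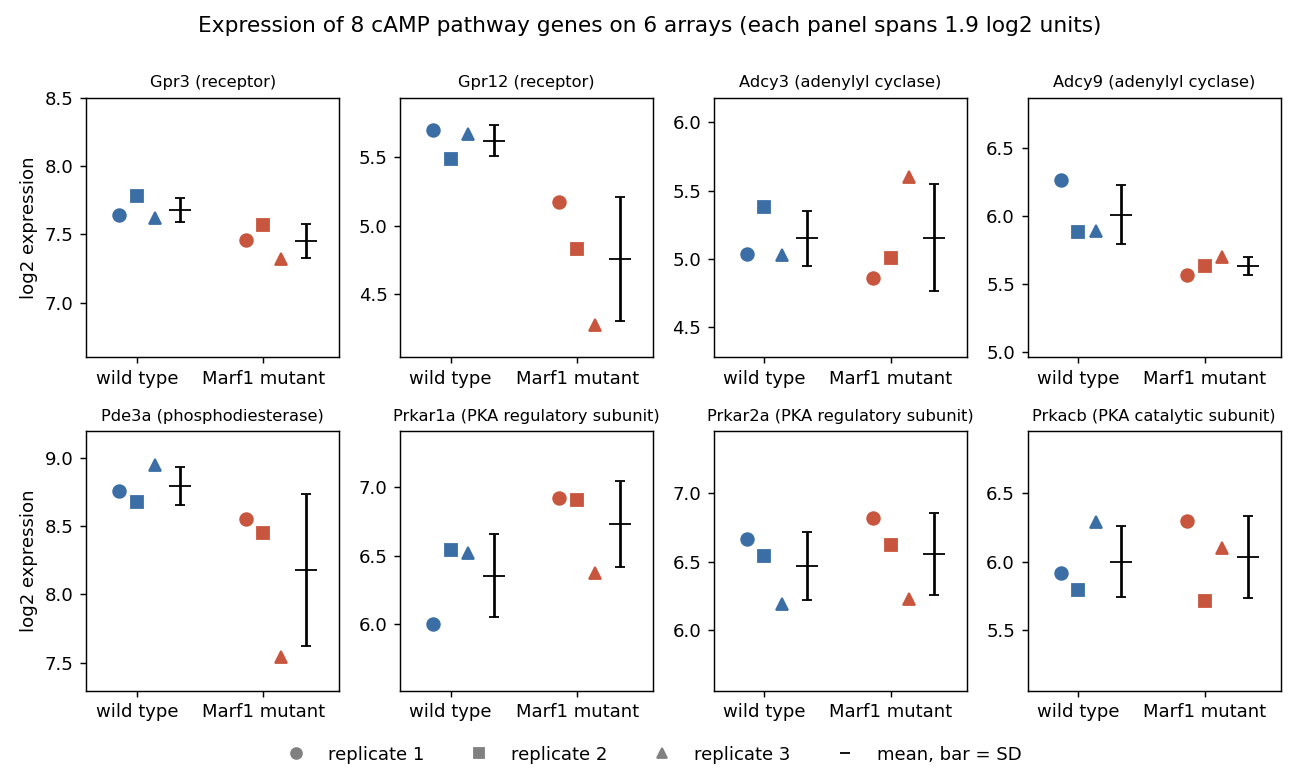
Log2 expression (vertical axes) of the 8 measured genes on each of 6 arrays, with wild type in blue, Marf1 mutant in red, replicates by marker shape and the black bar giving mean ± SD (n = 3). Gpr12, Gpr3, Adcy9 and Pde3a have all mutant points below all wild-type points. Mutant replicate 3 is the lowest point of Gpr12 (4.27), Pde3a (7.54) and Gpr3 (7.32).

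The adenylyl cyclases make cAMP, and the paralogs Adcy3 and Adcy9 had different values. Adcy9 (probe set 10437364) measured 6.26, 5.88 and 5.89 in wild type and 5.57, 5.63 and 5.70 in the mutant, on the log2 scale. All mutant samples were lower, by at least 0.18, and lay within 0.13 of each other. The log2 fold change was -0.38 (SE 0.15, limma unadjusted p = 0.042, adjusted p = 0.226), or 77.0% of wild type with a 95% interval of 60.0% to 98.8%. Leaving out 1 array gave -0.44 to -0.25: it was -0.41 without mutant replicate 3 and smallest without wild-type replicate 1, the highest sample (unadjusted p = 0.154). The unadjusted p also rose above 0.05 after cyclic loess normalization (0.102), with the replicate number as a block (0.0712) and without mutant replicate 1 or 2 (0.106 and 0.0853), and lay at the threshold after median scaling (0.0501) and without wild-type replicate 3 (0.0509). Adcy3 (probe set 10394258), a cyclase known to contribute to oocyte cAMP, measured 5.04, 5.38 and 5.03 in wild type and 4.86, 5.01 and 5.60 in the mutant. Its highest and lowest values were both from mutants, and the mutant range enclosed the wild-type range. The log2 fold change was 0.01 (SE 0.22, limma adjusted p = 0.994) with a 95% interval from 70.4% to 143% of wild type. Without mutant replicate 3, the highest sample, it was -0.21, still not past the threshold (adjusted p = 0.511).

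Pde3a (probe set 10542575) encodes the phosphodiesterase whose activity ends the arrest. Its log2 values were 8.76, 8.68 and 8.95 in wild type and 8.55, 8.45 and 7.54 in the mutant. Mutant replicates 1 and 2 sat just under the wild-type samples, 0.13 below the lowest of them at the nearest, and mutant replicate 3 lay far lower. The log2 fold change was -0.62 (SE 0.27, limma adjusted p = 0.258), or 65.2% of wild type with a 95% interval of 42.3% to 101%. Without mutant replicate 3 it was -0.30 (adjusted p = 0.294); this 1 array thus moved the value by more than any other left out. The 2 genes with the widest mutant spread, Pde3a (SD 0.56) and Gpr12 (SD 0.45), had wild-type SDs of 0.14 and 0.11. Both had their lowest value on mutant replicate 3, as did Gpr3 (7.32).

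PKA is a tetramer of regulatory and catalytic subunits. Prkar1a (probe set 10382284), the type I regulatory subunit, had log2 values of 6.00, 6.54 and 6.52 in wild type and 6.92, 6.91 and 6.37 in the mutant. Mutant replicates 1 and 2 were above every wild-type sample and mutant replicate 3 was among them. The log2 fold change was 0.38 (SE 0.22, limma adjusted p = 0.422), with a 95% interval of 91.2% to 186% of wild type. It was 0.56 without mutant replicate 3 (unadjusted p = 0.0272, adjusted p = 0.163), and 0.20 to 0.56 when 1 array was left out. This was the highest of the 8 fold changes.

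The type II regulatory subunit Prkar2a (probe set 10589087) measured 6.67, 6.54 and 6.19 in wild type and 6.82, 6.62 and 6.23 in the mutant, on the log2 scale. The groups overlapped nearly completely. The log2 fold change was 0.09 (SE 0.20, limma adjusted p = 0.885, 95% interval 76.7% to 148% of wild type). The catalytic subunit Prkacb (probe set 10502732) measured 5.92, 5.79 and 6.29 in wild type and 6.30, 5.71 and 6.10 in the mutant. Its range in the mutant enclosed the wild-type range, and the log2 fold change was 0.04 (SE 0.21, limma adjusted p = 0.961, 95% interval 73.6% to 143%). For these PKA genes, which did not pass, the direction is not settled: the sign of Prkar2a and Prkacb turned when single arrays were left out.

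**Figure D2:**
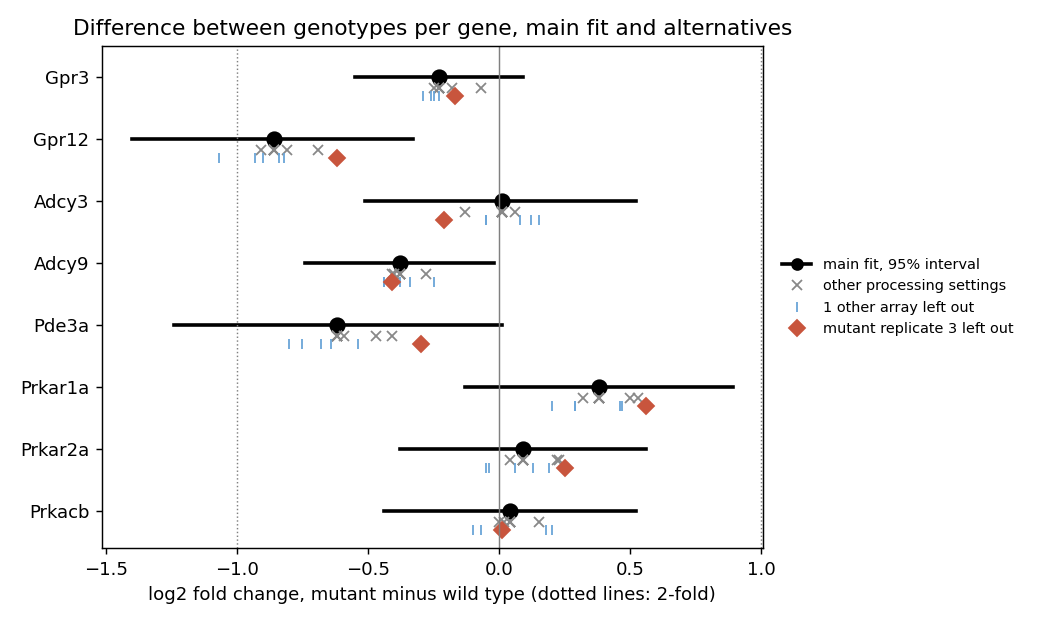
Log2 fold change of each gene, mutant minus wild type (horizontal axis), with the 95% confidence interval of the limma fit (black), other processing settings (grey crosses) and fits with 1 array left out (blue ticks, red diamond for mutant replicate 3). The intervals of Gpr12 and Pde3a reach past a 2-fold decrease, at -1.40 and -1.24, and those of the other 6 genes stay within 2-fold both ways.

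The precision behind these values came from 3 arrays a group, with standard errors of 0.14 to 0.27 on the log2 scale. The 95% intervals of 6 of the 8 genes lay within a 2-fold change in either direction (Gpr3, Adcy3, Adcy9, Prkar1a, Prkar2a and Prkacb). Those of Gpr12 and Pde3a reached beyond a 2-fold decrease, and in this fit those of Gpr12 and, barely, Adcy9 (-0.74 to -0.02 on the log2 scale) lay wholly below no change. An exact two-sided permutation test of a single gene gave p = 0.1 for Gpr12, Gpr3, Adcy9 and Pde3a, the smallest that 3 against 3 samples can give, and 0.3 to 1.0 for the others. Quantile, cyclic loess and median scaling turned no sign among the 8 fold changes. After quantile normalization Prkacb stood at 0.00 and Adcy3 at 0.01, so a kept sign says little for these genes. Array weights put Adcy3 at -0.13.

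Genes of one role were compared within each array, as the difference of 2 log2 values, for 7 pairs chosen after their values were seen. With a smallest possible p of 0.1 no pair could pass the threshold, so the values are descriptions. Such a difference shows unequal change, not which gene changed. Prkar2b, the other type II regulatory subunit, moved relative to Prkar2a by -0.78, with the 3 mutant arrays at -1.07, -0.69 and -0.59 from the wild-type mean and the wild-type arrays at -0.15, 0.00 and 0.14. The groups did not overlap (exact permutation test, two-sided, p = 0.1, adjusted over 7 pairs 0.35). Adcy6 moved relative to Adcy3 by 1.13, also without overlap (exact p = 0.1, adjusted 0.35). Gpr12 relative to Gpr3 gave -0.63 and overlapped (exact p = 0.2, adjusted 0.42). Pde3a relative to its paralog Pde3b gave -0.42 (exact p = 0.3), Adcy9 relative to Adcy3 -0.38 (exact p = 0.3), Prkar2a relative to Prkar1a -0.29 (exact p = 0.5) and Prkacb relative to Prkx 0.10 (exact p = 0.7).

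The profile of Gpr12, the gene of the set with the smallest p, was most like those of Pcca, a subunit of mitochondrial propionyl-CoA carboxylase, Txndc2, a thioredoxin-domain gene, and Zfyve9, an adaptor of TGF-beta receptors. Likeness was the root mean square difference of centred log2 values over 6 arrays, at 0.072, 0.076 and 0.078. Because these genes were chosen by likeness over the same 6 arrays, values that follow those of Gpr12 are built into the choice. All 3 had their lowest value on mutant replicate 3 (5.98, 8.59 and 5.15), as Gpr12 did. Their log2 fold changes were -0.95, -0.97 and -1.01, and Txndc2 and Zfyve9 passed the threshold (limma adjusted p = 0.0332 and 0.0382). With 3 arrays a group, many of 19938 genes can share such a profile.

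Around these 8 genes, 98 other genes of the pathway were measured, in 9 lists. Of these 10 rose and 6 fell (16.3%), where 10.4% of all genes passed. All 16 were among the 70 genes with a mean above the dim level (22.9%), where 16.2% of all such genes passed. That mean is over all 6 arrays, so a gene bright in only 1 genotype can enter by its change. Pde7a and Crem had wild-type means below the dim level (4.17 and 3.96), and Pde2a a mutant mean below it (4.32). The share among the 70 thus depends in part on the calls themselves, and the shares were not tested. The lists were also chosen with earlier results of these data known, so both shares are descriptions only. The 98 genes had a median log2 difference of -0.08. Among the rises were Creb1, Crem, Pde7a, Sgk1, Gjc1 and Adcy6, each 2-fold or more. The falls were smaller, from -0.57 to -0.93, and less firm: leaving out any 1 array left 0 to 2 of them, against 8 to 10 rises. Without mutant replicate 3 the counts were 10 higher and 2 lower. Cyclic loess and median scaling each gave 10 higher and 2 lower (83.3% higher, against 62.5%). The calls of lower thinned over the whole array too. Over all probe sets the share of higher calls was 61.5%, and 73.8% after cyclic loess and 67.6% after median scaling. With 1 array left out 297 to 896 probe sets were lower, against 1065 with all arrays.

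**Figure D3:**
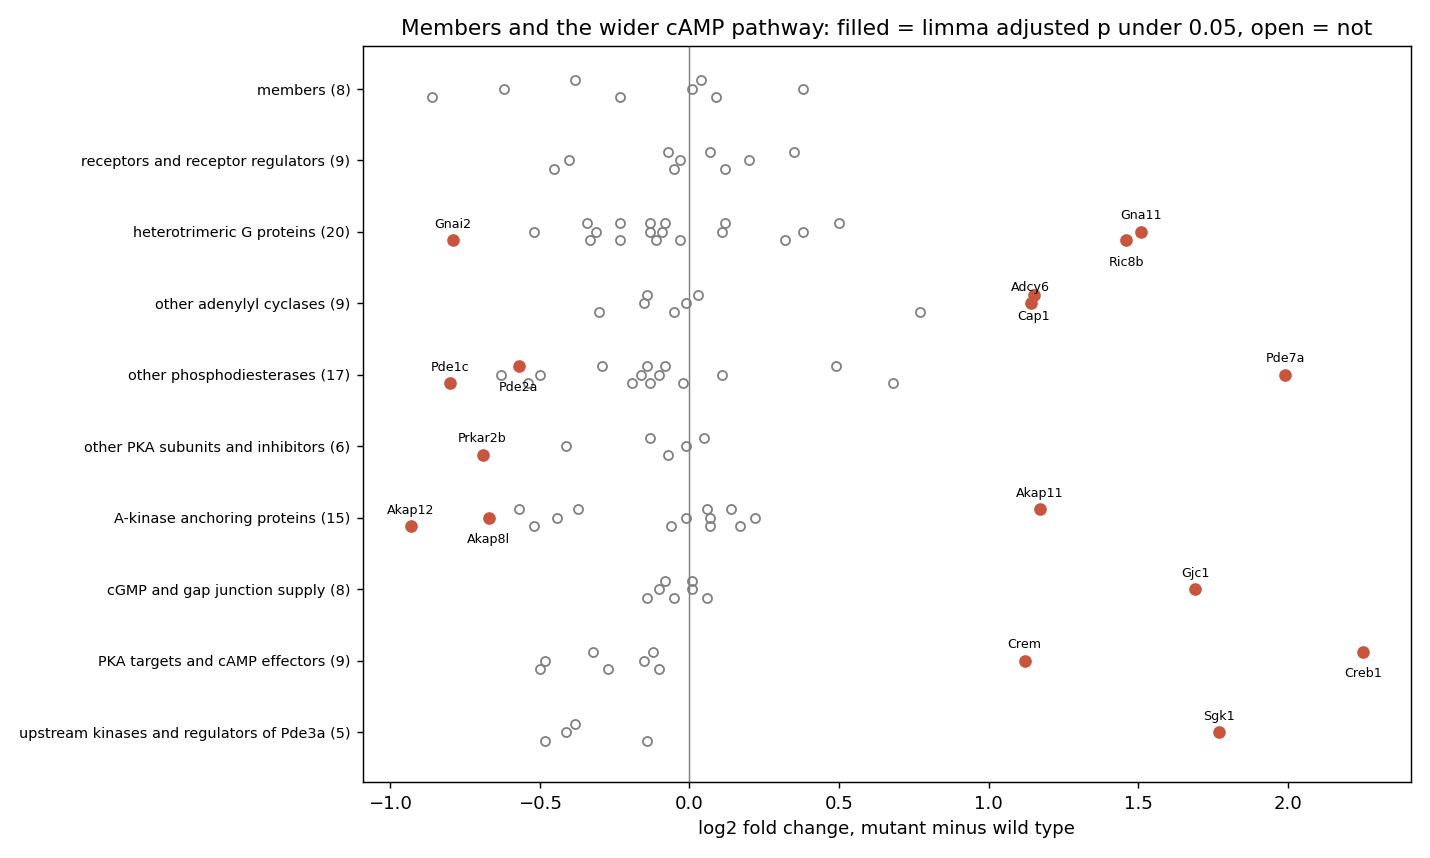
Log2 fold change, mutant minus wild type (horizontal axis), of the 8 genes of the set (top row) and of 98 other pathway genes by list, with filled red points for limma adjusted p under 0.05 and open points for the rest. None of the 8 is filled, Creb1 (2.25) is the largest rise and Akap12 (-0.93) the largest fall.

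At the receptor level, 0 of 9 receptors and receptor regulators passed and 0 had an unadjusted p under 0.05 in limma. Rgs2, a brake on G protein signalling, and the receptor Gpr6, the closest relative of Gpr3 and Gpr12, stood at -0.05 (SE 0.17) and 0.07 (SE 0.20) on the log2 fold change scale, neither past the threshold. The arrestin gene Arrb2 was at -0.40 (SE 0.18, limma adjusted p = 0.291).

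Of 20 G protein genes 2 rose and 1 fell. Gna11, an alpha subunit of the Gq class, rose from 5.97, 5.29 and 6.10 to 7.55, 7.23 and 7.12 (log2 fold change 1.51, SE 0.24, limma adjusted p = 0.0088). Ric8b, a chaperone and exchange factor for the stimulatory alpha subunits, rose from 6.05, 6.25 and 5.60 to 7.56, 7.29 and 7.44 (1.46, SE 0.19, adjusted p = 0.00389). In both genes every mutant sample exceeded every wild-type sample by over 1 log2 unit. Gnai2, an alpha subunit that inhibits cyclases, fell from 8.46, 8.42 and 8.76 to 7.62, 7.75 and 7.91 (-0.79, SE 0.16, adjusted p = 0.0238). It kept the call in 1 of 6 fits with an array left out, and lost it after cyclic loess normalization.

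The cyclase list held 9 genes, the other adenylyl cyclases and the cyclase-associated Cap1, of which 2 rose and 0 fell. Adcy6, a cyclase inhibited by calcium, measured 4.69, 4.89 and 5.16 in wild type and 5.96, 6.29 and 5.90 in the mutant (1.14, SE 0.18, limma adjusted p = 0.00896). Cap1, a cyclase-associated protein of the actin cytoskeleton, rose by 1.15 (SE 0.20, adjusted p = 0.0128), and lost the call without wild-type replicate 1 or 2. Adcy1 was at 0.77 (SE 0.22, adjusted p = 0.0813).

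Of 17 other phosphodiesterases 1 rose and 2 fell. Pde7a, which breaks down cAMP, went from 3.80, 4.19 and 4.51 to 6.22, 6.13 and 6.13 (log2 fold change 1.99, SE 0.19, limma adjusted p = 9.89e-04). Its wild-type mean of 4.17 was below the dim level. Pde1c, a calcium-activated enzyme, fell by 0.80 (SE 0.15, adjusted p = 0.0168), and kept the call in 2 of 6 fits with an array left out. Pde2a, which cyclic GMP stimulates, fell by 0.57 (SE 0.14, adjusted p = 0.0484) and kept the call in 0 of 6. Pde3b, the paralog of Pde3a, was at -0.19 (SE 0.23, adjusted p = 0.751).

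Of 6 other PKA subunits and inhibitors 0 rose and 1 fell. Prkar2b measured 8.15, 8.17 and 7.96 in wild type and 7.38, 7.56 and 7.27 in the mutant, a log2 fold change of -0.69 (SE 0.14, limma adjusted p = 0.0286). All mutant samples were lower by at least 0.40, yet the call held in 1 of 6 fits with an array left out. Of 15 A-kinase anchoring proteins, which tether PKA to organelles, 1 rose and 2 fell. Akap11 rose on each of its 3 probe sets, by 1.45, 1.32 and 1.17, and the brightest of these lost the call without wild-type replicate 3. Akap12 fell by 0.93 (SE 0.20, adjusted p = 0.0335) and Akap8l by 0.67 (SE 0.16, adjusted p = 0.0463), with the call kept in 2 and 0 of 6 fits with an array left out. Without mutant replicate 3 neither passed.

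In the cyclic GMP and gap junction list 1 of 8 rose and 0 fell. Gja4, the connexin of oocyte to cumulus channels, was at 0.01 (SE 0.21, limma adjusted p = 0.99), and Npr2, the cumulus guanylyl cyclase, lay below the dim level on every array. Gjc1, another connexin, rose from 5.51, 5.65 and 5.36 to 7.20, 7.49 and 6.91 (1.69, SE 0.18, adjusted p = 0.00163).

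Downstream, 2 of 9 PKA targets and cAMP effectors rose and 0 fell. Creb1, the CRE-binding transcription factor that PKA phosphorylates, had the largest change of the pathway, from 5.50, 5.82 and 5.85 to 8.01, 7.87 and 8.03 on the log2 scale. The groups were 2.02 apart and the rise was 4.75-fold (log2 fold change 2.25, SE 0.15, limma adjusted p = 2.26e-04). Its relative Crem rose from 3.51, 4.12 and 4.26 to 4.90, 5.23 and 5.13 (1.12, SE 0.22, adjusted p = 0.0214). Its wild-type mean of 3.96 was below the dim level, and the call was lost without wild-type replicate 2 or mutant replicate 2. The related factor Atf1 did not pass (-0.32, SE 0.19, adjusted p = 0.439). Wee2 and Cdc25b, the targets through which PKA restrains Cdk1, were at -0.27 (SE 0.19, adjusted p = 0.542) and -0.48 (SE 0.15, adjusted p = 0.121).

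Of 5 measured kinases listed as possible regulators of Pde3a 1 rose and 0 fell. Sgk1, a kinase of the Akt-related group, went from 5.51, 5.62 and 5.73 to 7.36, 7.44 and 7.38, a log2 fold change of 1.77 (SE 0.13, limma adjusted p = 3.17e-04). Akt1 was at -0.14 (SE 0.14, adjusted p = 0.695) and Plk1 at -0.38 (SE 0.16, adjusted p = 0.244). Creb1, Pde7a, Sgk1, Gjc1, Gna11, Ric8b and Adcy6 passed in all 14 alternatives, those that left out an array included.

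**Figure D4:**
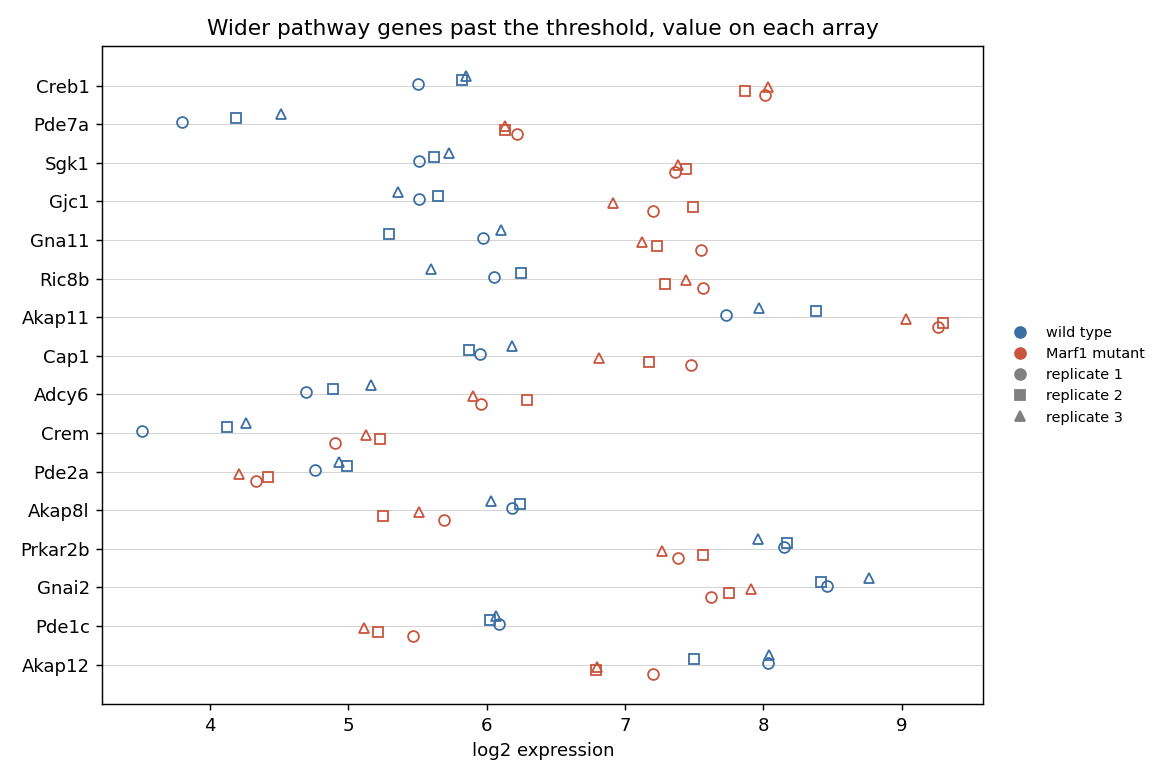
Log2 expression (horizontal axis) on each array of the 16 wider pathway genes past the threshold, with wild type in blue and Marf1 mutant in red. The groups of each gene lie apart, by 2.02 in Creb1 and by 0.30 in Akap12.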

How the data were processed

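Per the labels, oocyte RNA was amplified by a whole-transcript method and labelled with biotin for 6 arrays, 1 per sample. The authors deposited log2 expression values with 2 decimals for each probe set. Per the submitters' processing notes, GCOS, Affymetrix Expression Console 1.1 and RMA were used. RMA normalizes probes between arrays, so total RNA per oocyte is not visible, and the deposited arrays still differed in median (4.56 to 4.76) and SD (2.04 to 2.20). No genome build of the array design is named in the labels.

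Names came from the platform annotation: 21789 of 35556 rows named 1 gene, 1621 several and 12146 none; 21698 of the first matched RefSeq (GRCm38.p6) by Entrez ID. A gene with several rows (999 of 19938) is given by its brightest. RefSeq promoters matched 9 of the 10 genes.

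The comparison of 3 against 3 arrays used lmFit and eBayes of limma 3.58.1 (R 4.3.3), two-sided, on all rows, with Benjamini-Hochberg adjustment and 95% intervals from the moderated fit (prior degrees of freedom 3.65). Drawn from the wider lists were all genes past the threshold, and where none passed the 2 brightest, Rgs2 and Arrb2; the other genes named were chosen after their values were seen. The genes and lists were chosen with earlier results of these data known. The code of the fit was tested on simulated arrays with equal noise on every array. That test does not cover an array that stands apart, as mutant replicate 3 does. Alternatives were 3 scalings, a filter on dim rows, 1 row per gene, array weights, trend and robust eBayes, a replicate block and each array left out.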

Additional observations from a re-analysis of the deposited data

How the results depend on the processing

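Gpr12 crossed the threshold when the fit was rerun on 1 row per gene, or on rows brighter than the median row. Its log2 fold change stayed at -0.86, and 1 gene of the set was then lower. The unadjusted limma p moved as well, from 0.00616 to 0.00198 and 0.0048 in that order. When arrays were left out the log2 fold change of Gpr12 ranged from -1.07 to -0.62 (0 to 1 lower genes). Adcy3 was at -0.13 with array weights and ranged from -0.21 to 0.15, Prkar2a from -0.05 to 0.25 and Prkacb from -0.10 to 0.20 over arrays left out, none past the threshold. In the wider lists the lower genes numbered 2 after cyclic loess, 2 after median centring and 0 to 2 over arrays left out. Over all probe sets 1700 were higher and 1065 lower. The lower ones were 669 after median centring and 1646 with dim rows removed, and with arrays left out there were 1071 to 1908 higher and 297 to 896 lower. Cyclic loess gave 73.8% higher, against 61.5%. The cause was not tested.

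Whether the replicate numbers pair the samples cannot be told from 3 samples a group. Deviations of same-numbered samples correlated at 0.147, -0.099 and 0.027, and 3 of 6 samples correlated best with their own number. A fit with the replicate number as a block gave 1946 probe sets past the threshold against 2765 (556 lower), and 3 lower genes in the wider lists, with Gpr12 at -0.86 (adjusted p = 0.09). Each of the 8 genes has 1 row, so no choice between rows arose. Without mutant replicate 3 the marker lists had 0 oocyte, 2 cumulus, 1 theca and 0 blood markers higher, and 0, 0, 0 and 1 lower. The deposited values hold no background signal, so dim genes have no detection limit.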
